A study of Mus musculus with 12 samples.

Results

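Hemoglobin and erythroid genes were examined in dorsal root ganglia (DRG), the clusters of sensory nerve cells beside the spinal cord. The genes were chosen by name, as the 4 adult globins Hba-a1, Hba-a2, Hbb-bs and Hbb-bt and the 4 erythroid genes Alas2, Slc4a1, Ahsp and Epb42. Of these 8 names, 7 matched a row among 49315 genes, and Ahsp was not analysed here. All 7 passed the filter on low counts, as did 18295 genes in all. RNA was sequenced in bulk from about 8 DRG of each of 12 mice aged 10 months, with 1 library per mouse, so each library was a separate animal. All 12 mice carried Postn-Cre and Nf2 flox/flox, so Nf2 was targeted in both genotypes and no mouse with intact Nf2 was among the 12. The 6 Nf2 mice (Nf2-/-) had no further modification, whereas the 6 DKO mice (Nf2-/-;Fak1-/-) also carried Fak1 flox/flox, which targets the focal adhesion kinase gene annotated as Ptk2. Each genotype had 3 mice labelled male and 3 labelled female. Postn-Cre is described as deleting in Schwann cells and their precursors, and the sources used here describe no deletion in blood cells.

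Hemoglobin is a tetramer of 2 alpha and 2 beta chains, each holding a heme, and it carries oxygen in red blood cells. In the mouse, Hba-a1 and Hba-a2 encode the adult alpha chain and Hbb-bs and Hbb-bt the adult beta chain. Alas2 encodes the erythroid form of the enzyme that starts heme synthesis. Slc4a1 encodes band 3, the anion exchanger of the red cell membrane, and Epb42 encodes protein 4.2, which links band 3 to the membrane skeleton. These transcripts are made in maturing erythroid cells, which in the adult mouse arise in marrow and spleen, and remain in young red cells after the nucleus is lost. In bulk RNA, fewer erythroid cells and less RNA per cell cannot be told apart.

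The copies of each globin are close to identical, which bears on every value that sets one copy against the other. The coding sequences of Hba-a1 and Hba-a2 in GENCODE M21 (GRCm38) had 429 bases and differed at 1 base (99.8% identical). Those of Hbb-bs and Hbb-bt had 444 bases and also differed at 1 base (99.8% identical). The 61 bases around each difference are shown, 5′ to 3′ on the coding strand in exon 3, with the differing base in capitals. They lay at chr11:32284313-32284373 (+ strand) for Hba-a1, chr11:32297130-32297190 (+) for Hba-a2, chr7:103826665-103826725 (- strand) for Hbb-bs and chr7:103812656-103812716 (-) for Hbb-bt.
Hba-a1: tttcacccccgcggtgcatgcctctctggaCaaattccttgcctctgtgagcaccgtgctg
Hba-a2: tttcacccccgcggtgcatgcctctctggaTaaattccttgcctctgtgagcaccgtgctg
Hbb-bs: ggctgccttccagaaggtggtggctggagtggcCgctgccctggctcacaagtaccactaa
Hbb-bt: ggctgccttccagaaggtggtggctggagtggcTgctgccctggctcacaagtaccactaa
Coding stretches that miss this base are therefore common to both copies, which differ mainly outside the coding sequence. Over the longest transcript of each gene, the share of 100-base windows found in no other gene's transcript was 43.5% for Hba-a1, 25.5% for Hba-a2, 37.4% for Hbb-bs and 45.2% for Hbb-bt. In each case the shared windows were shared with the other copy alone. How reads that matched both copies were counted was not given in the sources used here, so the division of counts between copies is uncertain. If such reads were dropped, sums over both copies and the ratio of alpha to beta counts depend on it as well.

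Upstream sequences were examined because the genes moved together across mice, as given below. RefSeq promoters (GRCm38.p6) matched 6 of the 7 genes, and none matched Slc4a1. The 200 bases before the RefSeq start site are shown for an alpha globin, both beta globins and Alas2, 5′ to 3′ on the gene's strand. Capitals mark the letters searched on both strands. The GATA motif, bound by erythroid GATA factors, was searched as AGATAA and as TGATAA, and the motif of the Klf family was searched as CACACCC. The TATA box, where transcription factors assemble at many starts, was searched as TATAAA and as its form CATAAA. A further form, ATATAA, can overlap the first of these and was added after the sequences were seen. The windows were chr11:32283472-32283671 (+) for Hba-a1, chr7:103827929-103828128 (-) for Hbb-bs, chr7:103813924-103814123 (-) for Hbb-bt and chrX:150547217-150547416 (+) for Alas2. GENCODE M21 annotates a start of each of these 4 genes inside its window.
Hba-a1: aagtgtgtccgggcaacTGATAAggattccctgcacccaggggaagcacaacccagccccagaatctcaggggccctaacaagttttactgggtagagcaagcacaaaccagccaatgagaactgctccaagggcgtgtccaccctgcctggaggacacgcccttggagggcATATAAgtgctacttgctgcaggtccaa
Hbb-bs: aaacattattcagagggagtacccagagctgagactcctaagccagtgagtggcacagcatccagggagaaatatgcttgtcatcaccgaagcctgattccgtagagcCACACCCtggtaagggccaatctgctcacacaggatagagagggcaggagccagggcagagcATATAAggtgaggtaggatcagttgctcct
Hbb-bt: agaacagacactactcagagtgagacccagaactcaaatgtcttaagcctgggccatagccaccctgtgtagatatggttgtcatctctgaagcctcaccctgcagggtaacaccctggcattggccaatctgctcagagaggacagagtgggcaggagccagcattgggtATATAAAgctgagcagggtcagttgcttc
Alas2: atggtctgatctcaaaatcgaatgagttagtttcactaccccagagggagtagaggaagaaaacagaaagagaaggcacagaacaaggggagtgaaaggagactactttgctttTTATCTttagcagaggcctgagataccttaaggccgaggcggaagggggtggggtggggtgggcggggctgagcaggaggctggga
The alpha globin promoters were identical over 297 of 297 compared bases once shifted by 3 bases, so only that of Hba-a1 is shown. The beta globin promoters matched at 178 of 243 aligned bases (73.3%). ATATAA lay 28 bases before the start of Hba-a1, 30 before that of Hbb-bs and 29 before that of Hbb-bt, where it overlapped TATAAA, and was present in 9.10% of the 32851 promoters of 250 bases in the table. TATAAA was found in 12.4% of them and CATAAA in 10.8%. TGATAA lay 183 bases before the start of Hba-a1 (7.94% of promoters), AGATAA 86 bases before that of Alas2 on the opposite strand (9.99%) and CACACCC 92 bases before that of Hbb-bs (6.93%). Some matches fell in the 50 bases upstream of the stretches shown, such as AGATAA at 210 bases in Hbb-bs and, on the opposite strand, TATAAA at 209 bases in Alas2. In Epb42, AGATAA lay 226 bases and TATAAA 126 bases before the start, both on the opposite strand. These matches describe letters only and were not tested as sites.

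The libraries held 21129191 to 41250329 counts, and the 7 genes together took 866 to 27608 counts, or 0.00369% to 0.0802% of a library. Levels are given as CPM, counts scaled to a library total of 1000000, and 3 counts corresponded to 0.0727 to 0.142 CPM. The labels gave no batch. Mouse 702, an Nf2 mouse labelled male, had 496 CPM of Xist and 0.525 CPM of Ddx3y, as in the mice labelled female, so its library went against its sex label. It is kept by its label in what follows, and leaving it out called no further gene of the 7. Ptk2 was at 64.0 ± 10.4 CPM in DKO and 69.95 ± 3.597 CPM in Nf2 mice (mean ± SD, n = 6; edgeR adjusted p = 0.529), and Nf2 was at 118 ± 11.2 against 128 ± 12.4 CPM (adjusted p = 0.435). Markers of sensory neurons (10 genes, 6348 to 8572 CPM in sum) and of Schwann and satellite glia (9 genes, 8243 to 11945 CPM) were high in every library.

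Alpha globin counts were mostly assigned to Hba-a1, which varied 12.7-fold between Nf2 mice and 11.4-fold between DKO mice. How reads common to both copies were counted bears on this division, so it does not show which copy had more transcripts. Hba-a1 (ENSMUSG00000069919, GRCm38 chromosome 11, 32283511 to 32284465, + strand) was at 22.4 CPM (mouse 649), 93.6 (702), 203 (884), 139.98 (918), 80.2 (1048) and 284 (1049) in the Nf2 group. In the DKO group it was at 180.1 CPM (mouse 885), 273 (886), 33.4 (887), 321 (914), 194 (915) and 379 (917). Mice 649 and 887 were far below the others of their genotype, 2 DKO mice exceeded every Nf2 mouse, and the genotypes overlapped. The log2 difference of DKO from Nf2 mice was 0.73 (SE 0.54, edgeR adjusted p = 0.584). Hba-a2 (ENSMUSG00000069917, chromosome 11, 32296489 to 32297298, +) was assigned far fewer counts. It was at 0.724 to 4.04 CPM with a median of 1.58 in Nf2 mice and 0.947 to 5.83 CPM with a median of 4.08 in DKO mice. Its log2 difference of 0.93 (SE 0.43) had an unadjusted p of 0.0486 and an edgeR adjusted p of 0.331, and 5 of 6 DKO mice were above the Nf2 median.

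Beta globin transcripts followed a similar order of mice. Hbb-bs (ENSMUSG00000052305, chromosome 7, 103826534 to 103828096, - strand) was at 10.2 CPM (mouse 649), 59.6 (702), 141 (884), 93.6 (918), 36.0 (1048) and 184 (1049) in the Nf2 group. In the DKO group it was at 146 CPM (mouse 885), 224 (886), 20.02 (887), 269 (914), 157 (915) and 299 (917). Here 3 DKO mice lay above every Nf2 mouse, but mouse 887 lay below 5 of the Nf2 mice. Hbb-bs had the largest log2 difference of the 7 genes, 1.07 (SE 0.61, 95% interval -0.13 to 2.27, edgeR adjusted p = 0.451). Hbb-bt (ENSMUSG00000073940, chromosome 7, 103812524 to 103813996, -) ranged from 2.26 to 47.99 CPM with a median of 16.1 in Nf2 mice and from 3.17 to 54.6 CPM with a median of 28.9 in DKO mice. Its log2 difference was smaller, 0.50 (SE 0.61, edgeR adjusted p = 0.756).

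The erythroid enzyme and membrane genes were present at lower levels. Alas2 (ENSMUSG00000025270, chromosome X, 150547375 to 150570638, +) was at 0.724 CPM (mouse 649), 4.80 (702), 10.1 (884), 6.53 (918), 3.04 (1048) and 19.3 (1049) in the Nf2 group. In the DKO group it was at 9.37 CPM (mouse 885), 11.5 (886), 2.22 (887), 16.6 (914), 14.1 (915) and 24.3 (917). Thus Alas2, which is on chromosome X, was low in the same 2 mice as the globins, and only mouse 917 exceeded the highest Nf2 mouse. Slc4a1 (ENSMUSG00000006574, chromosome 11, 102348824 to 102366203, -) ranged from 0.468 to 31.6 CPM with a median of 6.96 in Nf2 mice and from 0.757 to 34.8 CPM with a median of 15.7 in DKO mice. Epb42 (ENSMUSG00000023216, chromosome 2, 121017891 to 121037072, -) was the lowest, with 0 to 101 counts per library. It ranged from 0.0426 to 2.62 CPM in Nf2 mice, and in DKO mice from 1.28 to 4.36 CPM apart from mouse 887, whose 0 counts allow a level of up to 0.142 CPM, a floor for counting error only. The log2 differences of Alas2, Slc4a1 and Epb42 were 0.79, 0.61 and 0.68, with edgeR adjusted p-values of 0.588, 0.762 and 0.723.

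Per kilobase of annotated exon, the mean level over 12 mice was 226 CPM for Hba-a1, 178 for Hbb-bs, 35.6 for Hbb-bt, 4.29 for Hba-a2, 4.25 for Alas2, 2.82 for Slc4a1 and 0.284 for Epb42. Hba-a1 and Hbb-bs, and likewise Hba-a2 and Alas2, differed by less than the spread between mice. Exon length was taken in full, although much of each globin copy is shared with the other. The globin values, and their order beside the other genes, therefore depend on how shared reads were counted. The embryonic globins Hba-x, Hbb-bh1 and Hbb-y, which precede the adult genes in development, reached at most 0.218 CPM in a library, and Hbb-bh0 and Hbb-bh2 had no counts. The theta globin Hbq1b, which lies within the alpha cluster, was at 2.30 to 3.76 CPM in every mouse, with r = 0.29 with the mean of the 7 genes.

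**Figure D1:**
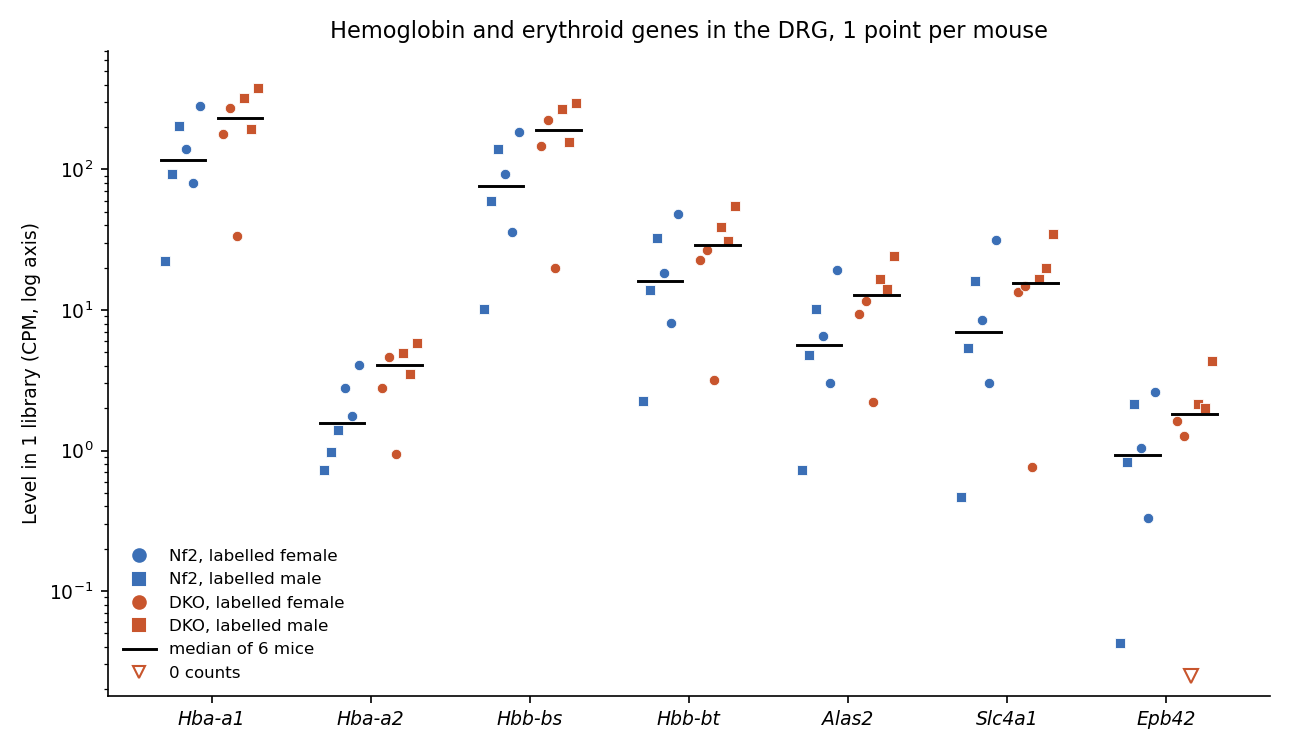
Level of each gene in CPM (log axis) with 1 point per mouse, circles for labelled females and squares for labelled males. Black bars are medians of 6 mice, and the open triangle marks Epb42 with 0 counts in mouse 887. The genotypes overlap for each of the 7 genes, with mice 649 and 887 lowest in their genotype.

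No gene of the 7 passed the genotype test. The estimates were all positive (median log2 difference 0.73, against 0.00467 over all tested genes), but 0 of 7 had an edgeR adjusted p under 0.05, where 172 of 18295 tested genes (0.94%) did. At an unadjusted p under 0.05 the count was 1 of 7, against 14.9% of all tested genes. DESeq2 and limma voom also called 0 of 7 adjusted and 1 unadjusted, and they called 831 and 521 genes over the whole table. Because the 7 genes moved together, their shared sign is not 7 separate observations. The spread between mice was wide, with a biological coefficient of variation in edgeR of 51.3% (Hba-a2) to 95.1% (Epb42) against a median of 15.7% over tested genes. On the log2(CPM + 4) scale, the SD of Hbb-bs, the largest of the 7, was 1.36 in Nf2 and 1.35 in DKO mice, where the 95th percentile of tested genes was 0.33 in each. Hba-a2 (0.29 in Nf2, 0.36 in DKO mice) and Epb42 (0.28 and 0.345), which had the lowest CPM, lay near that percentile. For the 6 genes other than Hba-a2, the 95% interval of the log2 difference ran from below 0 to at least 1.70, so the data showed neither a change nor its absence. Without mice 649 and 887, an alternative added after seeing the data, 0 of 7 genes were called as well.

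The labelled sexes differed in their estimates but not past the threshold. In DKO mice, Hba-a1 averaged 298 CPM in males and 162 CPM in females, whereas in Nf2 mice it averaged 106 CPM in males and 168 CPM in females. In labelled males alone, the log2 difference of DKO from Nf2 was 1.31 (Hbb-bt) to 2.15 (Hba-a2). In labelled females alone, it was -0.58 (Slc4a1) to 0.30 (Hbb-bs), with 6 of 7 estimates below 0. The interaction of genotype and sex had positive estimates for all 7 genes (median 1.85), but 0 of 7 passed at an adjusted p under 0.05, where 2 of 18295 genes (0.0109%) did, and 1 of 7 had an unadjusted p under 0.05, against 4.78% of tested genes. That gene was Hba-a2, with an interaction estimate of 2.18 (SE 0.68, unadjusted p = 0.00774, edgeR adjusted p = 0.920). The mice labelled female included mouse 887, which was low in every gene, and the Nf2 mice labelled male included mouse 649. Between labelled males and females, with genotype as a covariate, 0 of 7 genes were called (0.0164% of tested genes) and 0 of 7 had an unadjusted p under 0.05 (2.91%). Leaving out mouse 702, or any other mouse, called no gene in either test.

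**Figure D2:**
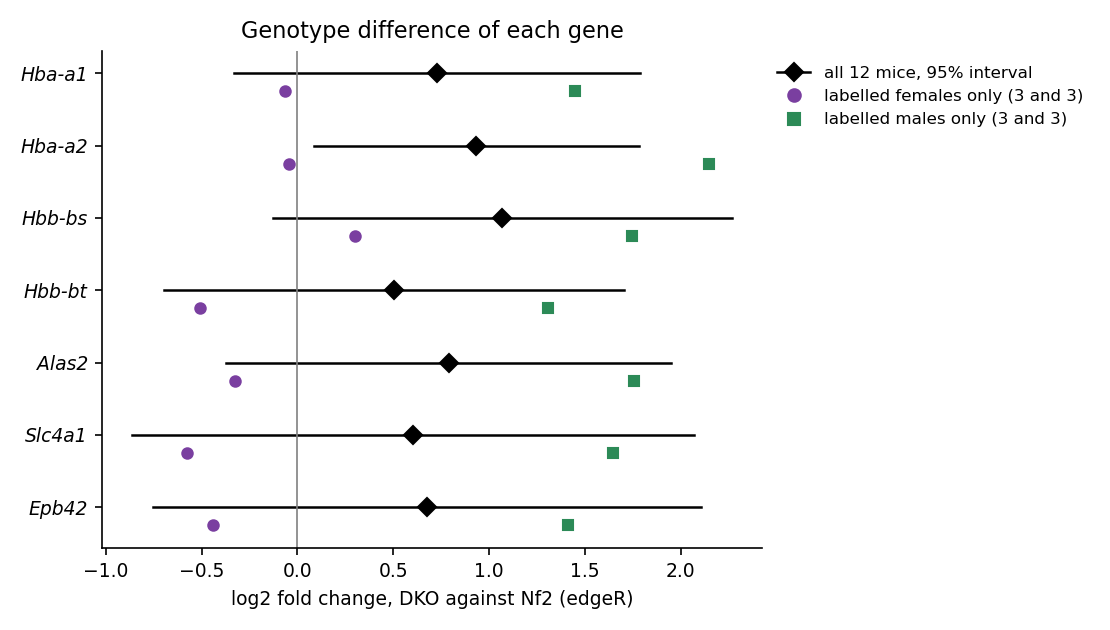
Log2 fold change of each gene in DKO against Nf2 mice. Diamonds and lines are all 12 mice with the 95% interval, and circles and squares are the estimates in labelled females and labelled males alone. All 7 diamonds lie above 0, whereas 6 of 7 female estimates lie below 0 and the male estimates lie between 1.31 and 2.15.

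The 7 genes varied together from mouse to mouse. Over the 21 pairs of genes and 12 mice, Pearson's r of log2(CPM + 4) ranged from 0.79 to 0.99 (median 0.95) and Spearman's rho from 0.75 to 0.99, and all 21 pairs passed a permutation test of r and of rho with adjustment over the 21 pairs (largest adjusted p 0.00274 for r and 0.0071 for rho). Hba-a1 and Hbb-bs, on different chromosomes, had r = 0.99 and rho = 0.97 (permutation p = 1e-05 for each, the smallest that 100000 resamples can give). Alas2 and Slc4a1, on chromosomes X and 11, had r = 0.98 and rho = 0.99. The 2 mice farthest from the median of the first gene of a pair were mice 649 and 887, or mice 649 and 917 for the pairs of Hba-a2 with a gene other than Hba-a1. Without them r was 0.63 (Hba-a2 and Epb42) to 0.98 (Hba-a1 and Hbb-bs), with a median of 0.92. Within genotypes, r ranged from 0.65 to 0.998 in the 6 Nf2 mice and from 0.83 to 0.999 in the 6 DKO mice. The pairs below 0.8 in Nf2 mice all contained Hba-a2, for which exact permutation p-values ran from 0.0694 to 0.158. The points of a pair share a library, so depth and any difference between dissections enter both values.

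The division of beta globin counts between Hbb-bs and Hbb-bt differed between the genotypes. Hbb-bs took 81.9% of the counts of both copies (mouse 649), 81.2% (702), 81.2% (884), 83.6% (918), 81.8% (1048) and 79.3% (1049) in the Nf2 group. In the DKO group it took 86.7% (mouse 885), 89.4% (886), 86.3% (887), 87.4% (914), 83.4% (915) and 84.6% (917). Mouse 915 lay just below Nf2 mouse 918, and the other 5 DKO mice lay above every Nf2 mouse. The mean share was 81.5% ± 1.38 in Nf2 and 86.3% ± 2.10 in DKO mice (SD, n = 6), a difference of 4.80 percentage points (two-sided exact permutation test over 924 splits, p = 0.00433, adjusted over 4 composition values p = 0.0173), and the share was above the Nf2 mean in 6 of 6 DKO mice. The difference was 4.19 to 5.38 points with any 1 mouse left out, and passed each time. It stood at 4.88 points without mice 649 and 887. In labelled females it was 5.89 and in labelled males 3.72 points, where 3 mice against 3 cannot give a p below 0.1. The share rested on 293 beta globin counts in mouse 649 and 490 in mouse 887, with 95% Wilson intervals of 77.1% to 85.9% and 83.0% to 89.1%, which cover counting error only. Since the copies differ at 1 coding base, the share depends on how reads common to both were assigned. Whether the genotypes carry different beta globin haplotypes was not tested.

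Among genes within 1 Mb of the beta globin cluster, Trim34b passed the genotype test as well. Of 9 tested genes within 1 Mb of the cluster (chromosome 7, 103812524 to 103828096), all of the Trim family of antiviral and ubiquitin ligase proteins, 1 was called between genotypes and 6 had an unadjusted p under 0.05, against 0.94% and 14.9% of all tested genes. Trim34b rose, from 0.179 ± 0.0676 CPM in Nf2 to 3.67 ± 1.83 CPM in DKO mice (log2 difference 4.31, SE 0.41, edgeR adjusted p = 0.000399). Its Nf2 levels of 0.102 to 0.270 CPM were near the level of 3 counts, so the size of this difference is uncertain. Trim12a (104299894 to 104315466) was at 20.7 to 31.7 CPM in Nf2 mice, 11.0 to 12.1 CPM in DKO males and 0.298 to 0.493 CPM in DKO females. Its genotype test did not pass (log2 difference -2.09, adjusted p = 0.169), but its interaction with labelled sex did (4.41, SE 0.25, edgeR adjusted p = 1.61e-05, with 0.0109% of tested genes called). Trim5 (104263386 to 104288094) had 6.71 to 9.26 CPM in Nf2 mice, 2.68 to 4.39 CPM in DKO males and 0.0947 to 0.266 CPM in DKO females, and its interaction estimate was 4.13 (SE 0.39, adjusted p = 0.00238). These 3 genes lie 435290 to 501375 bases from the cluster, were named from earlier results, and belong to 1 gene family, and whether Trim copies share reads was not tested. The DKO females were mice 885, 886 and 887 and the DKO males mice 914, 915 and 917. Sex in DKO mice therefore cannot be told apart from any other difference between these sets of mice. The Hbb-bs share was 87.4% ± 1.66 in DKO females and 85.1% ± 2.07 in DKO males (SD, n = 3 each), with overlapping ranges, and this difference was not tested. The part of these neighbouring genes in the Hbb-bs result was not tested. Beside the alpha globin cluster (chromosome 11, 32283511 to 32297298), 1 of 20 tested genes within 1 Mb was called (0.94% of all tested genes), and that was Stc2, a secreted stanniocalcin, which fell in DKO mice (log2 difference -1.28, adjusted p = 0.0200), from 5.58 ± 1.42 to 2.36 ± 0.801 CPM.

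**Figure D3:**
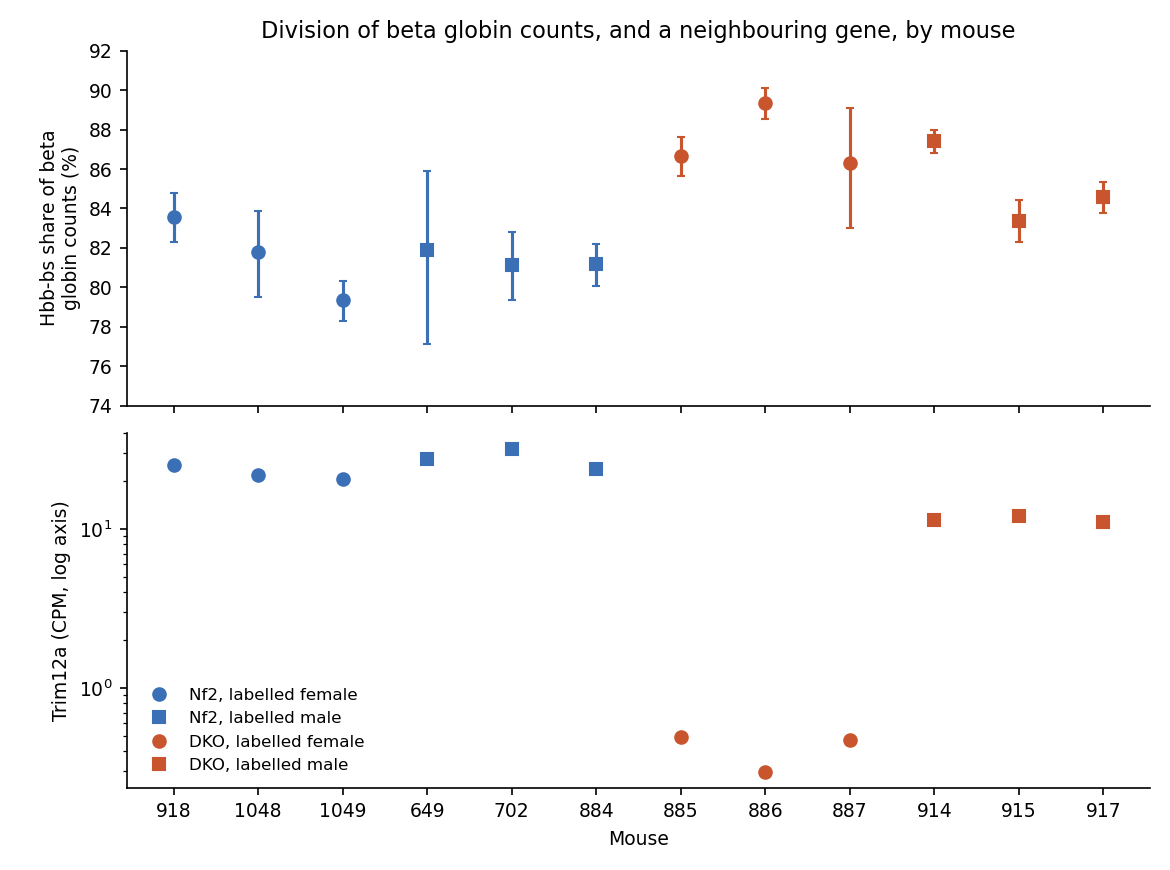
Upper panel, Hbb-bs as a percentage of the counts of Hbb-bs and Hbb-bt in each mouse, with 95% Wilson intervals (the axis does not start at 0). Lower panel, Trim12a in CPM (log axis). The Nf2 shares lie between 79.3% and 83.6% and the DKO shares between 83.4% and 89.4%, and Trim12a is below 0.5 CPM in the 3 DKO females.

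The alpha copies and the balance of chains did not differ past the threshold. Hba-a1 took 98.3% ± 0.879 of the counts of both alpha copies in Nf2 mice and 98.2% ± 0.485 in DKO mice (difference -0.0681 points, exact permutation adjusted p = 0.861). Hba-a2 therefore took between 0.686% and 3.13% of alpha counts, with its largest shares in mouse 649 (3.13% of 544 counts) and mouse 887 (2.76% of 725 counts). The ratio of alpha to beta counts was 1.86 (mouse 649), 1.29 (702), 1.18 (884), 1.27 (918), 1.86 (1048) and 1.24 (1049) in the Nf2 group. In the DKO group it was 1.08 (mouse 885), 1.11 (886), 1.48 (887), 1.06 (914), 1.05 (915) and 1.09 (917). The 3 highest ratios were in the 3 mice with the least globin, namely 649 (35.6 CPM over the 4 globins), 887 (57.5 CPM) and 1048 (126 CPM), and 5 of 6 DKO mice lay below every Nf2 mouse. The log2 ratio averaged 0.51 ± 0.30 in Nf2 and 0.18 ± 0.19 in DKO mice, a difference of -0.32 (exact permutation p = 0.0563, adjusted p = 0.113). The call turned on a single library, since without mouse 887 the difference reached -0.40 (adjusted p = 0.0130), and without mice 649 and 887 it reached -0.32 (adjusted p = 0.0317). With 1 mouse left out it passed in 1 of 12 fits, with exact permutation adjusted p-values of 0.0130 to 0.208. As a mean of log2(CPM + 4) the difference was -0.26 and did not pass (exact permutation adjusted p = 0.479). The counts of Alas2, Slc4a1 and Epb42 together came to 3.46% to 10.3% of the globin counts, and their log2 ratio to globin was -4.01 ± 0.53 in Nf2 and -3.92 ± 0.37 in DKO mice (difference 0.10, adjusted p = 0.861).

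**Figure D4:**
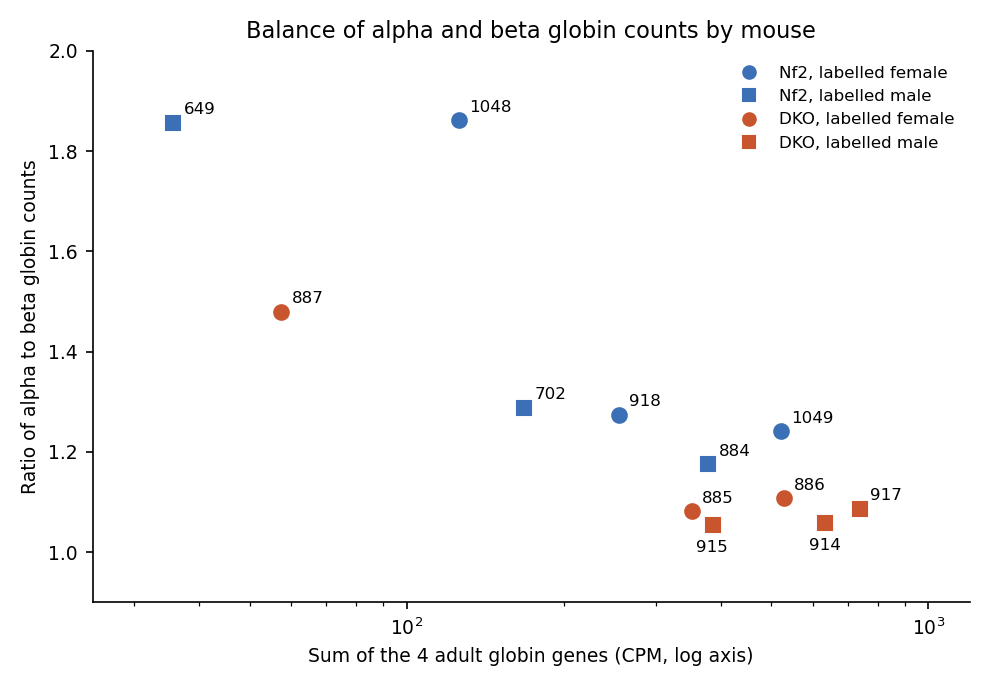
Ratio of alpha (Hba-a1 and Hba-a2) to beta (Hbb-bs and Hbb-bt) counts against the summed CPM of the 4 globins (log axis), with 1 point per mouse and its number. Mice 649, 887 and 1048 combine the lowest globin sums with ratios of 1.48 to 1.86, and the other 9 mice lie between 1.05 and 1.29.

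Other genes of the red cell were then set beside the 7, using lists chosen with earlier results known. Likeness is given as Pearson's r with the mean log2(CPM + 4) of the 7 genes over 12 mice, as a description without a test. Over all tested genes the median r was 0.08 and 1018 of 18295 genes (5.56%) reached 0.8. Of the red cell membrane list, 15 of 16 genes were tested, 9 reached r of 0.8, and the median r was 0.82. Its most abundant members, Ank1 (320 to 423 CPM), Add2 and Dmtn, are also used by nervous tissue, and the summed level of the list was 1010 to 1399 CPM in Nf2 and 1178 to 1529 CPM in DKO mice. Among the erythroid transcription factors, 4 of 9 tested genes reached 0.8. These were the red cell regulators Gata1 (0.0426 to 1.81 CPM, r = 0.83), Klf1 (0.0947 to 2.24 CPM, r = 0.87), Tal1 (1.28 to 6.17 CPM, r = 0.84) and Nfe2 (0.170 to 4.97 CPM, r = 0.90), named after their values were seen. The most abundant of that list, Ldb1, Lmo2 and Zfpm1, had r of -0.38, -0.18 and 0.72.

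The summed level of heme synthesis genes beyond Alas2 was steady, whereas single genes varied more. The 11 other genes of the pathway and of mitochondrial heme and iron transport summed to 371 to 433 CPM in Nf2 and 372 to 431 CPM in DKO mice, their median r was 0.05, and 2 of 11 reached 0.8. Between genotypes 0 of 11 were called and 3 had an unadjusted p under 0.05, against 14.9% of tested genes. Alad was at 39.3 ± 3.62 CPM in Nf2 and 28.5 ± 6.59 CPM in DKO mice (edgeR adjusted p = 0.115). Slc25a37 ranged from 30.2 to 63.6 CPM (r = 0.76), and both were named after their values were seen. Alas1, the form of the first enzyme used outside erythroid cells and named after its values were seen, stood at 35.2 to 45.3 CPM (r = 0.05), above Alas2 in every library. Fech, which inserts iron to form heme, was at 39.6 to 65.9 CPM (r = 0.80). Of the reticulocyte and maturation list, 5 of 17 tested genes reached 0.8 (median r 0.64). These were Bpgm (r = 0.92), Trim10 (0.91), Car1 (0.89), Hemgn (0.89) and Xpo7 (0.84), named after their values were seen. The most abundant of that list, Cd24a (655 to 952 CPM), Prdx2 (199.96 to 457 CPM) and Bnip3l, had r of -0.07, -0.60 and 0.59. In the hemoglobin and heme clearance list, 3 of 10 tested genes reached 0.8 and the median r was -0.10. Its most abundant genes were the ferritin chains Fth1 and Ftl1, at r of -0.14 and -0.73, and Lrp1, at r = 0.87. Hp (r = 0.83) and Slc40a1 (r = 0.81) also reached 0.8 and were named after their values were seen. Between genotypes, none of the heme synthesis, membrane, transcription factor, maturation and clearance genes was called by edgeR (0 of 62 tested, 10 of them at an unadjusted p under 0.05, against 0.94% and 14.9% of all tested genes).

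Of the lists of blood and marrow cells other than red cells, the neutrophil list had the highest median r. All 13 neutrophil granule genes were tested, 11 reached r of 0.8 and the median r was 0.89. Their sum ran from 12.8 to 593 CPM in Nf2 mice (median 92.2) and from 19.4 to 498 CPM in DKO mice (median 242). It was lowest in mice 649 (12.8 CPM) and 887 (19.4 CPM) and high in mice 1049 (593 CPM) and 917 (498 CPM), and no marker was at 0 in all libraries. S100a8 and S100a9, the calprotectin subunits of neutrophils, had r of 0.95 each, and S100a8 ran from 1.66 to 93.0 CPM. Of 9 marrow progenitor and proliferation genes 1 reached 0.8, Mki67, a marker of dividing cells (6.73 to 32.3 CPM, r = 0.92), and the median r was 0.71. Among platelet and megakaryocyte genes 0 of 7 tested genes reached 0.8 (median r 0.61, sums of 15.9 to 33.9 CPM). Among B lineage genes 0 of 5 did (median r 0.61, sums of 5.40 to 41.5 CPM). Mouse 649 had the highest B lineage sum of the Nf2 mice, 31.3 CPM, of which the single gene Jchain made 28.9 CPM. Between genotypes 0 of these 5 were called and 4 had an unadjusted p under 0.05, against 0.94% and 14.9% of all tested genes. Endothelial genes, which line the vessels, had a median r of 0.59 and sums of 127 to 164 CPM in Nf2 and 153 to 209 CPM in DKO mice. The part of marrow, blood content and dissection in these values was not tested.

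The muscle, bone, macrophage, neuron and glial lists had median r of 0.32 or lower, with single genes above that. The 11 skeletal muscle genes had a median r of 0.21, and their sum was 53.1 to 1166 CPM (median 751) in Nf2 and 64.6 to 397 CPM (median 138) in DKO mice, with 0 of 11 called and 9 at an unadjusted p under 0.05, against 0.94% and 14.9% of all tested genes. The 8 tested bone and cartilage genes had a median r of 0.32 and sums of 27.0 to 58.4 CPM, and 0 of 8 reached 0.8. The closest of them, the bone sialoprotein gene Ibsp, had r = 0.79 and rho = 0.74, with 3.24 CPM in mouse 649, 2.93 in mouse 887 and 7.03 in mouse 1049. The osteoblast and osteocyte genes Bglap, Phex and Mepe were at most 2.13, 1.196 and 0.13 CPM and not tested. Bglap and Phex each had a rho of 0.62, and Bglap was at 0.128 CPM in mouse 649, 0.0473 in mouse 887 and 2.13 in mouse 1049. Other genes of the list did not follow this order. The osteoblast and osteocyte genes Sp7 and Dmp1 had r of 0.17 and 0.16, and Sp7 was at 0.511, 0.521 and 0.486 CPM in the same mice. The most abundant genes of the list, Ctsk and Col2a1, had r of -0.39 and -0.47. Macrophage genes had a median r of -0.22. Their sum was 213 to 321 CPM in Nf2 and 175 to 234.5 CPM in DKO mice, and C1qb, a complement subunit, fell in DKO mice (log2 difference -0.71, edgeR adjusted p = 0.0138), the single gene called among the 17 lists. Sensory neuron and glial lists had median r of -0.25 and -0.07, and 1 sensory neuron gene, the sodium channel gene Scn9a, reached 0.8 (r = 0.82). Ibsp, Sp7, Dmp1 and Scn9a were named after their values were seen.

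**Figure D5:**
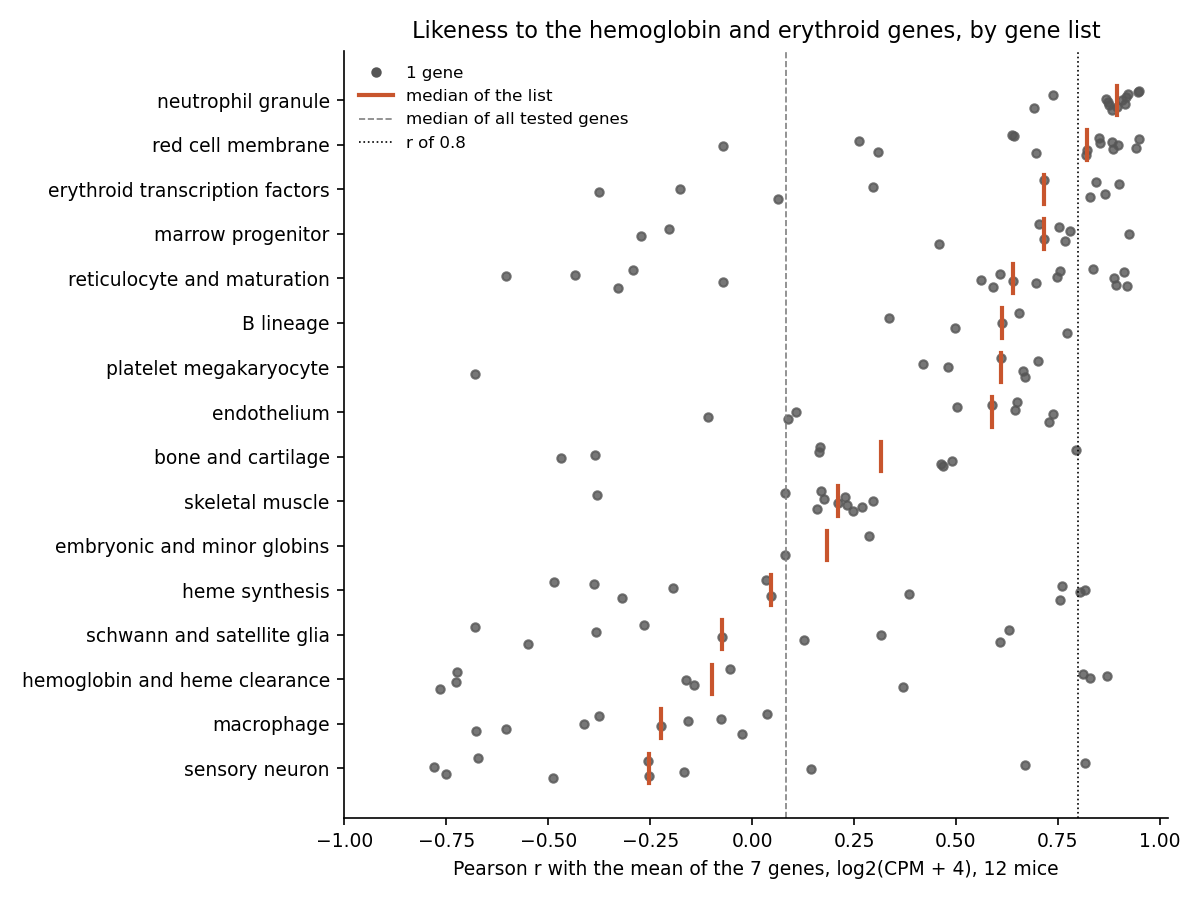
Pearson's r of each tested list gene with the mean log2(CPM + 4) of the 7 genes over 12 mice, by list, with a bar at the median of the list. The dashed line is the median of all tested genes (0.08) and the dotted line is 0.8. Neutrophil granule (median 0.89) and red cell membrane genes (0.82) lie farthest right, and heme synthesis genes centre near 0.05.

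Across all tested genes, those with the closest likeness to the mean of the 7 included Pitpnm1, Nhsl2, Pi16, Mkl2, Igfbp5, St8sia4 and the neutrophil genes S100a9 and S100a8, with r of 0.95 to 0.98 and rho of 0.86 to 0.96. The closest, Pitpnm1 (a phosphatidylinositol transfer protein), had r = 0.98 but ranged only from 55.2 to 75.9 CPM. Pi16, a peptidase inhibitor known in fibroblasts, ranged from 3.71 to 19.5 CPM and Igfbp5, which binds insulin-like growth factors, from 83.7 to 212 CPM. None of these 8 was called between genotypes, with edgeR adjusted p-values from 0.525 to 0.793. The points share libraries, and the 2 lowest mice weigh on each r.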

How the data were processed

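Bulk RNA-seq libraries of DRG from 12 mice were made with poly(A) selection by a commercial provider. The submitters' processing notes name Trimmomatic 0.36, STAR 2.5.2b and featureCounts of Subread 1.5.2 on GRCm38. How strand and multiply matching reads were treated was not given in the sources used here. The authors deposited raw counts per Ensembl gene and mouse, without normalization.

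Counts were analysed here in R 4.3.3 with edgeR 4.0.16 (filterByExpr by genotype, trimmed mean of M values, quasi-likelihood F test, Benjamini-Hochberg adjustment over 18295 genes, threshold 0.05), with DESeq2 1.42.0 and limma 3.58.1 voom as alternatives and tested on simulated data. SEs were derived from the F statistic and intervals are normal. CPM used the library totals, and fold changes are TMM-scaled. Composition values were compared by two-sided exact permutation tests over 924 splits, and correlations on log2(CPM + 4) by permutation with 100000 resamples, or exactly within a genotype. Of the table's 49315 genes, 48970 had an identifier in GENCODE M21, which gave coordinates. Genes named were the 8 members, list genes that passed the threshold or had the highest mean CPM, the 10 closest in likeness (some are not reported here), called neighbours of the globin clusters with Trim5, Trim12a and Trim34b, and Ptk2, Nf2, Xist and Ddx3y. Members and lists were chosen with earlier results of these data known. Alternatives were other scaling, filters, tests, pseudocounts, a sex covariate, a fold threshold of 1.2, single sexes and leaving out each mouse.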

Additional observations from a re-analysis of the deposited data

Results flagged for a closer look

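Among 22 groups of 6 mice, formed by the 7 genes and 4 composition values in each genotype, 4 had a mouse far from the others, where chance gives 1.1 (1 group in 20). All 4 concerned DKO mouse 887. Its Hba-a1 level was 5.22 on the log2(CPM + 4) scale, against 7.52 in the nearest DKO mouse, and its Hbb-bs level was 4.59 against 7.23. Its Hba-a1 share of alpha counts was 97.2% against 98.2%, and its log2 ratio of alpha to beta counts was 0.57 against 0.15. These 4 values come from 1 library and are not separate observations. The genotype difference was unlike between the labelled sexes for Trim12a (interaction 4.41, edgeR adjusted p = 1.61e-05) and Trim5 (4.13, adjusted p = 0.00238). These neighbours of the beta globin cluster were low in all 3 DKO females, mice 885, 886 and 887. The DKO males were mice 914, 915 and 917, so sex cannot be told apart from any other difference between these sets of mice.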

How the results depend on the processing

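No alternative called any of the 7 genes between genotypes (25 settings), between sexes (15) or in the interaction (15), and the median correlation of the pairs stayed between 0.92 and 0.98. Over the whole table, DESeq2 called 831 and limma voom 521 genes between genotypes, against 172 with edgeR. The log2 differences kept their sign in 24 or more of 25 settings, but their size did not hold: with 1 mouse left out it ran from 0.26 to 1.28 for Slc4a1, 0.27 to 1.06 for Epb42, 0.24 to 0.93 for Hbb-bt, 0.52 to 1.33 for Alas2 and 0.50 to 1.06 for Hba-a1, highest without mouse 1049 and lowest without mouse 917 (649 for Hba-a1). In females only they turned for Hba-a1 (-0.063), Hba-a2 (-0.045), Hbb-bt (-0.51), Alas2 (-0.32), Slc4a1 (-0.58) and Epb42 (-0.44). The cause was not tested. The Hbb-bs share passed in 14 of 16 settings, but not in females only (5.89 points, adjusted p = 0.4) or males only (3.72 points, adjusted p = 0.2), where 3 against 3 mice cannot pass. With 1 mouse left out, the alpha to beta log2 ratio differed by -0.40 to -0.25, the Hba-a1 share by -0.35 to 0.14 points and the ratio of other erythroid genes to globin by -0.072 to 0.24, so the last 2 have no settled sign. The Hba-a1 share turned in males only (0.00875 points), and the erythroid to globin ratio turned in females only (-0.27), without mice 649 and 887 (-0.0016) and as a mean of log2(CPM + 4) (-0.24). Without mice 649 and 887, added after seeing the data, the alpha to beta ratio passed (-0.32, adjusted p = 0.0317). As a mean of log2(CPM + 4) it did not (-0.26, exact permutation adjusted p = 0.479). No paired analysis was possible because the mouse numbers in the labels are not shared between the genotypes. Depth limits Epb42 most, with 0 to 101 counts per library.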
